A study of Homo sapiens with 12 samples.

Results

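Class I antigen presentation in A549 cells, a human lung adenocarcinoma line, is described here through 9 genes of the 57879 in the deposited expression files. The members were taken by gene name, as the row of each gene on a primary chromosome: the heavy chains HLA-B, HLA-C and HLA-E, the light chain B2M, the peptide loading genes TAP1, TAP2, TAPBP and ERAP1, and the regulator NLRC5. Each of the 9 names matched 1 row. HLA-B, HLA-C, HLA-E, TAP1, TAP2 and TAPBP lie on chromosome 6, B2M on chromosome 15, ERAP1 on chromosome 5 and NLRC5 on chromosome 16.

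RNA was sequenced from stable lentiviral A549 lines of 4 groups, and values of 8 libraries were used out of 12 samples in the labels. The sh-TAF15 lines carried an shRNA vector that lowers TAF15, and replicates 2 and 3 were used. The sh-NC line carried the control shRNA vector, and only replicate 2 was used. The TIF1γ lines overexpressed TIF1γ (the product of TRIM33), with replicates 2 and 3 used, and the vector lines carried the empty expression vector, with replicates 1, 2 and 3 used. All groups share the A549 parent, lentiviral infection and growth in serum-containing medium, and no drug or cytokine treatment is named in the labels. The series' design text states 3 biological replicates in each group but not whether they came from separate infections, so p-values measure the spread between these libraries. The shRNA lines and the other lines differ in construct, and line and handling cannot be told apart from it.

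Class I molecules are made of a membrane-bound heavy chain and the soluble light chain beta-2-microglobulin, and they display peptides of intracellular proteins to CD8+ T cells. Peptides from the proteasome are pumped into the endoplasmic reticulum by the TAP transporter, trimmed there by ERAP1, and loaded with the help of tapasin, the product of TAPBP. Transcription of most of these genes responds to interferons through interferon-stimulated response elements, to NF-kB, and to NLRC5, which acts with RFX, CREB or ATF and NF-Y proteins at conserved promoter boxes. Epithelial tumours often carry low class I mRNA, which interferon gamma can raise.

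The stretches upstream of 5 members are shown because they hold these elements in the genes whose levels are compared below, namely 2 heavy chains, the light chain, the transporter and tapasin. Sequences are RefSeq promoters of build GRCh38.p14, cut to the 250 bases before the annotated start. They are written 5′ to 3′ along each gene, and capitals mark every match of the motifs listed after them.
HLA-B (chr6:31357180-31357429, minus strand): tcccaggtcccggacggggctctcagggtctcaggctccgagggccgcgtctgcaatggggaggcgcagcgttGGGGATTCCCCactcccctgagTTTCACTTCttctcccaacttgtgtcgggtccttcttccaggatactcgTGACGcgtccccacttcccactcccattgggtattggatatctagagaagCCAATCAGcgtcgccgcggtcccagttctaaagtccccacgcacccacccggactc
HLA-C (chr6:31272093-31272342, minus strand): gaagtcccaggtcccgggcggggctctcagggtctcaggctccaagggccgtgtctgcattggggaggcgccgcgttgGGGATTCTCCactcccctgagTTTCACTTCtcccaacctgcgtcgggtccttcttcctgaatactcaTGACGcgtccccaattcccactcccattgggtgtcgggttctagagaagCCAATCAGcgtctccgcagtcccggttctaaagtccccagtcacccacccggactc
B2M (chr15:44711267-44711516, plus strand): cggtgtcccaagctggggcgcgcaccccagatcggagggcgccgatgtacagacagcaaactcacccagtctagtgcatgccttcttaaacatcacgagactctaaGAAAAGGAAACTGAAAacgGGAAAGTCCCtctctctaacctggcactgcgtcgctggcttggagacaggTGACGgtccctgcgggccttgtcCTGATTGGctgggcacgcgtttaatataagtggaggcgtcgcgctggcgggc
TAP1 (chr6:32853705-32853954, minus strand): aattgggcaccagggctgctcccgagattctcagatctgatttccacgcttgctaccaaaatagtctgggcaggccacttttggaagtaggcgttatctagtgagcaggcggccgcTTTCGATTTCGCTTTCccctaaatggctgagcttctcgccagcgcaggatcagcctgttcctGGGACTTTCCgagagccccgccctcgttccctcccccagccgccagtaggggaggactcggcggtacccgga
TAPBP (chr6:33314079-33314328, minus strand): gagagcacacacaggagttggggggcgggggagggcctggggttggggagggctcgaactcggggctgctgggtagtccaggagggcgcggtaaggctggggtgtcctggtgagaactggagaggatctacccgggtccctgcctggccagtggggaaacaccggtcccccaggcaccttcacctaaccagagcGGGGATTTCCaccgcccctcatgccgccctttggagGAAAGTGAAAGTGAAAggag

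A table entry matched 7 of the 9 members (HLA-B, HLA-C, B2M, TAP1, TAP2, TAPBP and ERAP1), with 9 starts between them. Both strands were searched, and overlapping matches were kept. The wide form of the interferon-stimulated repeat, GAAA followed by any 2 bases and GAAA again, was found in 4 of the 7 genes (B2M, TAP1, TAP2 and TAPBP) and in 3.02% of the 35116 promoter windows of the same length. The narrow form, GAANNGAAA, was found in 4 of the 7 (HLA-B, HLA-C, TAP2 and ERAP1) and in 6.56% of all windows. It overlaps the wide form in TAP2, and in ERAP1 it lies before the second annotated start only. The Y box CTGATTGG, the NF-Y site, was found in HLA-B, HLA-C and B2M and in 3.81% of all windows. The X2 box core TGACG, a CREB and ATF site, was found in HLA-B, HLA-C, B2M and TAP2 and in 21.2% of all windows. The NF-kB consensus was found in 6 of the 7 genes, all but TAP2, and in 9.96% of all windows. These matches are letters in a window and say nothing about factor binding in A549 cells.

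**Figure D1:**
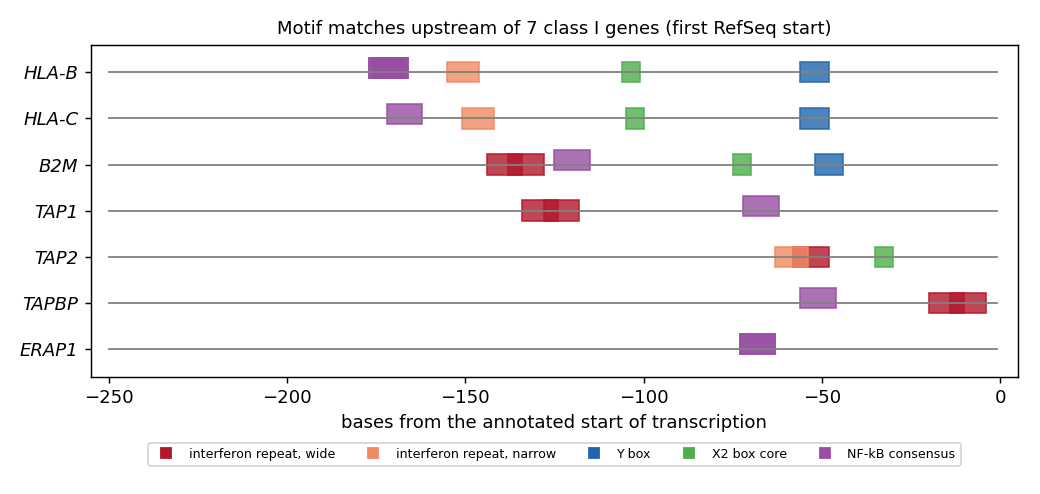
Motif matches in the 250 bases upstream of the first RefSeq start of 7 class I genes; the horizontal axis is the distance from the start in bases, each row is a gene, and each coloured block is a match on either strand. HLA-B, HLA-C and B2M carry the X2 box core followed by the Y box, and B2M, TAP1, TAP2 and TAPBP carry the wide interferon repeat.

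Levels are given as deposited FPKM, which counts sequenced fragments relative to the transcript's length and to the library's total. The libraries are alike in depth. From the smallest steps between low values, the relative depth ran from 0.79 to 1.04 of vector replicate 1, and at the 300-base insert of the labels this corresponds to about 16200000 to 21400000 fragments per library. With the longest transcript of each gene, the weakest members rest on roughly 110 to 535 fragments per library for NLRC5, 124 to 866 for ERAP1 and 134 to 314 for HLA-B. TRIM33 stood at 8.03 and 6.14 FPKM in TIF1γ libraries, against 2.23, 2.10 and 1.27 FPKM in vector libraries (limma adjusted p = 0.130). The current identifier of TAF15 is not among the rows used. An identifier without a name in that annotation, ENSG00000172660, is recalled (not verified here) as the one TAF15 had in earlier releases, and it stood at 26.3 and 17.4 FPKM in sh-TAF15 libraries, against 107 FPKM in sh-NC (limma adjusted p = 0.0669).

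Markers of A549 cells and of simple epithelium differed between the groups. Of 12 listed, 8 were tested, and between the shRNA lines and the vector and TIF1γ lines 6 were lower and 0 higher at a limma adjusted p under 0.05, where 21.1% of all genes tested were lower and 20.4% higher. AKR1B10, an aldo-keto reductase abundant in A549 cells, stood at 191 to 467 FPKM in the shRNA lines, against 2050 to 3129 FPKM in the others (log2 fold change −3.33). ALDH3A1, an aldehyde dehydrogenase, gave −1.83, and the epithelial adhesion genes CDH1 and EPCAM gave −1.38 and −1.02. For CDH1, only sh-NC, at 0.857 FPKM, lay below the vector range of 4.27 to 10.4 FPKM. Both sh-TAF15 libraries lay inside that range, with a mean of 6.48 FPKM. ALDH3A1 stood at 568 FPKM in sh-NC, 1612 and 1989 FPKM in sh-TAF15 and 1824 to 5179 FPKM in the vector and TIF1γ lines. EPCAM overlapped as well, at 0.436 to 1.87 FPKM in the shRNA lines and 1.25 to 3.75 FPKM in the others. ALDH1A1, another aldehyde dehydrogenase of the list, was not lower, at 1165 to 1847 FPKM in the shRNA lines and 782 to 1354 FPKM in the others. SFTPB was at 0 in 7 of the 8 libraries, and NKX2-1 was at most 0.206 FPKM. KRT7 stood at 1516 to 1922 FPKM in the shRNA lines and at 1763.5 to 3746 FPKM in the vector and TIF1γ lines. KRT19 stood at 0.243 to 0.775 FPKM in the shRNA lines, against 26.9 to 61.7 FPKM in the vector and TIF1γ lines. KRT8 and KRT18 were listed at 0 in both TIF1γ libraries, beside at least 1397 and 1129 FPKM in every other library, and they are among 19 genes of this kind that were set aside from tests. Of 10 leukocyte markers, CD14 alone reached 1 FPKM in any library, and CD3E, CD3D and MS4A1 were at 0 in all 8. The summed leukocyte list ran from 4.91 to 10.5 FPKM in the shRNA lines and from 11.9 to 35.2 FPKM in the others, nearly all of it CD14. The summed fibroblast list of 7 genes ran from 4.31 to 6.05 FPKM in the shRNA lines and from 0.403 to 1.65 FPKM in the others. Of 5 endothelial markers 4 were in the files, and none reached 1 FPKM. The part of these marker differences in the class I values was not tested.

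All 9 members were expressed, and their mean levels over the 8 libraries covered a wide range. B2M led at 1146 FPKM, followed by HLA-E at 58.1, TAPBP at 40.1, TAP1 at 24.9, HLA-C at 19.1, TAP2 at 11.9, HLA-B at 9.32, ERAP1 at 3.84 and NLRC5 at 2.37 FPKM. B2M was above HLA-E, TAP1 above HLA-C, and HLA-C above TAP2 in 8 of 8 libraries. HLA-E was above TAPBP, TAPBP above TAP1, and HLA-B above ERAP1 in 7 of 8, and ERAP1 was above NLRC5 in 6 of 8. TAP2 and HLA-B did not keep an order, since TAP2 was the higher in 5 of 8. HLA-E, the nonclassical heavy chain that presents leader peptides of other class I chains to NKG2A, was thus the most abundant heavy chain among the members per unit of length.

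The heavy chains bind the peptide and carry most of the variation between people. HLA-B stood at 6.83 and 15.4 FPKM in sh-TAF15 libraries, 6.73 in sh-NC, 10.5 and 12.9 in TIF1γ libraries and 5.28, 11.4 and 5.45 in vector libraries. Its values overlapped between all replicated groups, and sh-TAF15 replicate 3 and vector replicate 2 stood well above the other libraries of their groups. HLA-C, a ligand of killer-cell receptors, stood at 17.0 and 24.2 FPKM in sh-TAF15, 16.5 in sh-NC, 24.0 and 24.0 in TIF1γ and 13.2, 16.0 and 17.9 in vector. Both TIF1γ libraries lay above every vector library, and sh-TAF15 replicate 3 reached the same level. HLA-E stood at 40.3 and 44.9 FPKM in sh-TAF15, 38.3 in sh-NC, 82.0 and 96.2 in TIF1γ and 40.3, 48.2 and 74.7 in vector. The shRNA libraries clustered at the low end together with vector replicate 1, and both TIF1γ libraries were the highest of all 8. Heavy chain genes share long stretches of sequence and vary between people, and how reads that match several of them, or differ from the reference, were counted is not given in the sources used here, so levels compared between these genes are uncertain.

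B2M, the light chain shared by all class I molecules, stood at 1466 and 1913.5 FPKM in sh-TAF15, 1762 in sh-NC, 609 and 971 in TIF1γ and 729, 758 and 955 in vector. Every shRNA library lay above every other library, and the TIF1γ and vector values overlapped. In bulk RNA, fewer cells with a transcript and less of it per cell cannot be told apart.

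TAP1 and TAP2 encode the subunits of the peptide transporter. TAP1 stood at 24.8 and 27.8 FPKM in sh-TAF15, 21.2 in sh-NC, 29.4 and 30.3 in TIF1γ and 19.9, 22.1 and 23.8 in vector, the narrowest span of the 9 members, with its highest value 1.52 times its lowest. TAP2 stood at 10.9 and 13.6 FPKM in sh-TAF15, 15.5 in sh-NC, 15.8 and 11.6 in TIF1γ and 8.88, 8.97 and 9.95 in vector. For both subunits every TIF1γ library was above every vector library, and the shRNA libraries lay inside the range of the others.

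TAPBP encodes tapasin, which bridges empty class I molecules to the transporter and favours stable peptides. It stood at 28.9 and 23.1 FPKM in sh-TAF15, 41.2 in sh-NC, 58.1 and 48.4 in TIF1γ and 34.4, 31.4 and 55.0 in vector. The sh-TAF15 libraries were the lowest of all, below sh-NC and below every vector library, while sh-NC lay inside the vector range.

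ERAP1, the aminopeptidase that trims peptides in the endoplasmic reticulum, stood at 5.60 and 2.81 FPKM in sh-TAF15, 8.96 in sh-NC, 1.41 and 2.83 in TIF1γ and 2.42, 1.48 and 5.19 in vector. Its highest value was 6.37 times its lowest, the widest span of the 9. Replicates of 1 group differed widely. The ranges of the replicated groups overlapped, and the single sh-NC library had the highest value. NLRC5, the transactivator of class I genes, stood at 4.82 and 3.18 FPKM in sh-TAF15, 3.44 in sh-NC, 2.58 and 1.48 in TIF1γ and 0.830, 1.33 and 1.29 in vector. The 3 shRNA libraries were the highest, the TIF1γ libraries came next and the vector libraries were the lowest, with no overlap between these sets.

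**Figure D2:**
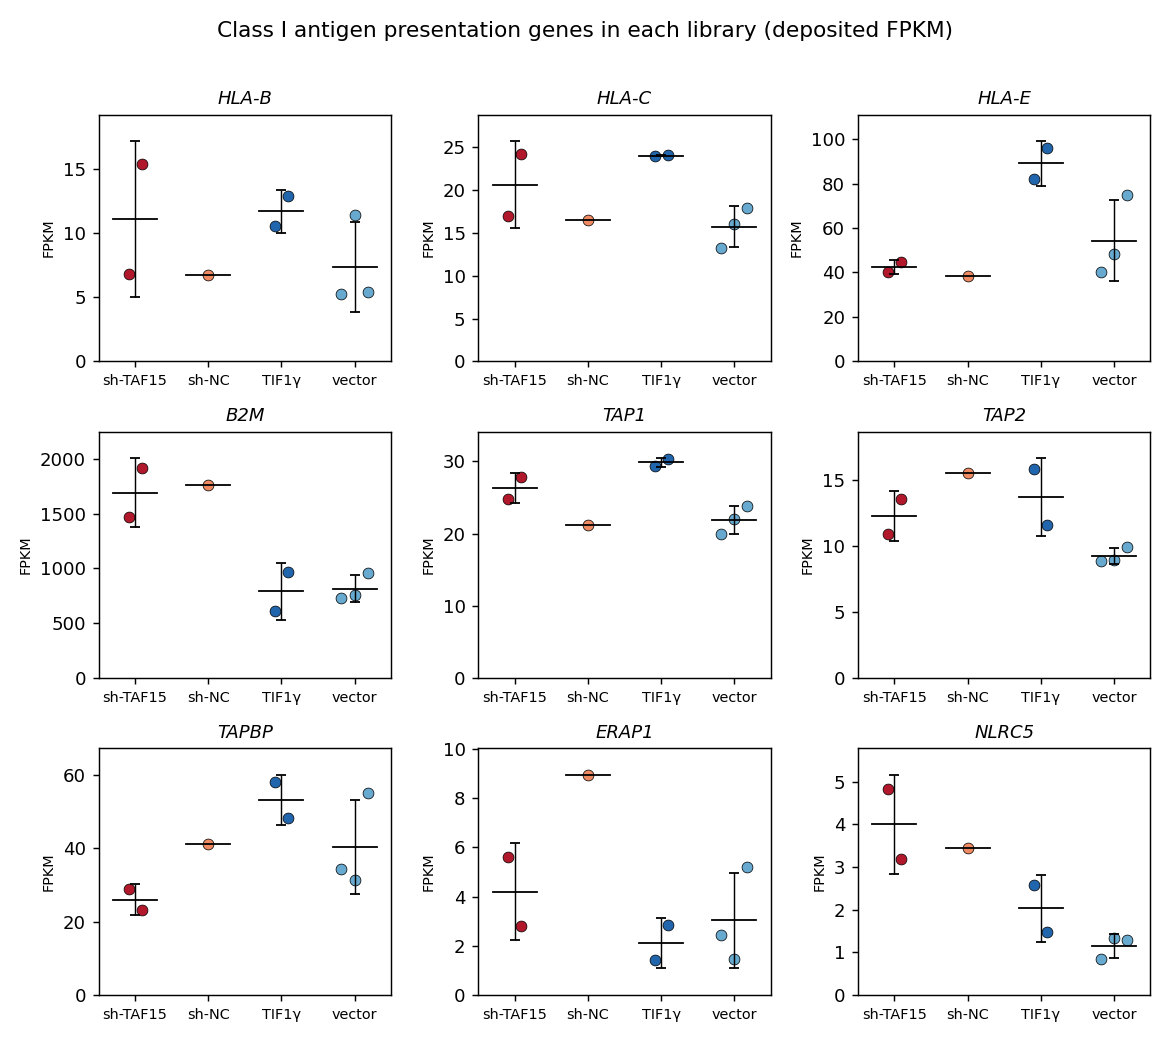
FPKM of the 9 members by group, with 1 point per library; the horizontal bar is the group mean and the error bar is the SD of groups with 2 or 3 libraries (sh-NC has 1 library and no error bar). B2M stands at 1466 to 1913.5 FPKM in the shRNA lines and at 609 to 971 FPKM in the others, while HLA-E is highest in the TIF1γ libraries at 82.0 and 96.2 FPKM.

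The design's first comparison asks how A549 cells with TIF1γ overexpression differ from cells with the empty vector. Fitted values were above 0 for 7 of the 9 members, where 7140 of all 13907 genes tested were above 0. None of the 9 members passed the test. HLA-E averaged 89.1 ± 10.0 FPKM in TIF1γ libraries (SD, n = 2) and 54.4 ± 18.1 FPKM in vector libraries (SD, n = 3), for a log2 fold change of 0.66 (SE 0.28) on the log2(FPKM + 1) scale, which applies to all fold changes here. Its limma adjusted p was 0.229, and at an unadjusted 0.0343 it was the only member under 0.05. The classical chains gave 0.60 (SE 0.36) for HLA-B and 0.51 (SE 0.25) for HLA-C, with limma adjusted p of 0.343 and 0.263.

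Of the loading genes, TAP1, TAP2 and TAPBP gave values above 0 that were smaller than those of the heavy chains, and ERAP1 was below 0. The log2 fold change was 0.35 (SE 0.23) for TAP1, 0.43 (SE 0.24) for TAP2 and 0.35 (SE 0.28) for TAPBP. The regulator NLRC5 gave 0.43 (SE 0.28). B2M averaged 790 ± 256 FPKM in TIF1γ libraries (SD, n = 2) and 814 ± 123 FPKM in vector libraries (SD, n = 3), with a log2 fold change of −0.15 (SE 0.29), and ERAP1 gave −0.36 (SE 0.42). Limma adjusted p of the 9 members ran from 0.229 to 0.770. By limma 0 of 9 members were called, where 0.0216% of all 13907 genes tested were, and 1 of 9 had an unadjusted p under 0.05, where 19.9% of all genes did. The median log2 fold change was 0.43 over the members and 0.02 over all genes tested.

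Every TIF1γ library lay above every vector library for HLA-C, HLA-E, TAP1, TAP2 and NLRC5, which is 5 of 9 members, where 20.8% of all genes tested did so. Across 11720 protein-coding genes the fold change in this comparison was larger at higher transcript GC content (Spearman's rho 0.778, a description across genes, which are not independent replicates). The members' transcripts ran from 39.7% GC in ERAP1 and 40.6% in B2M, the only members with values below 0, to 62.7% in HLA-C. With the trend on GC and length removed, HLA-C stood at −0.02 and TAP1 at −0.01, and B2M and ERAP1 turned to 0.24 and 0.16. Values that kept their sign then were not called either.

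The comparison of sh-TAF15 with sh-NC asks how the cells differ when TAF15 is silenced. None of the 9 members passed the test, and it rests on a single sh-NC library, whose spread is taken from the replicated groups. TAPBP averaged 26.0 ± 4.17 FPKM in sh-TAF15 libraries (SD, n = 2), against 41.2 FPKM in sh-NC, with a log2 fold change of −0.71 (SE 0.37, limma adjusted p = 0.896). ERAP1 averaged 4.21 ± 1.97 FPKM in sh-TAF15 libraries (SD, n = 2), against 8.96 FPKM in sh-NC, with a log2 fold change of −1.03 (SE 0.57, limma adjusted p = 0.913). For ERAP1 the interval of 95% reached from −2.25 to 0.19.

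The heavy chains and the light chain were close to 0 or had wide intervals. HLA-B gave a log2 fold change of 0.49 (SE 0.49), which was −0.01 without sh-TAF15 replicate 3. HLA-C gave 0.23 (SE 0.33), HLA-E 0.08 (SE 0.38) and B2M −0.14 (SE 0.39). TAP1 gave 0.24 (SE 0.30), TAP2 −0.38 (SE 0.32) and NLRC5 0.10 (SE 0.38). By limma 0 of 9 members were called, where 0.0575% of all genes tested were, and 0 of 9 had an unadjusted p under 0.05, where 5.62% of all genes did. The median log2 fold change was 0.08 over the members and −0.00 over all genes. Both sh-TAF15 libraries lay above sh-NC for HLA-B, HLA-C, HLA-E and TAP1 and below it for TAP2, TAPBP and ERAP1, together 7 of 9, where 73.0% of all genes lay to 1 side.

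The effect of TIF1γ overexpression minus that of TAF15 silencing was also fitted. TAPBP gave 1.06 (SE 0.46), the only member with an unadjusted p under 0.05 (0.0378), and the limma adjusted p of each of the 9 members was 1.00. By limma 0 of 9 members were called, where 0.0431% of all genes tested were, and 1 of 9 had an unadjusted p under 0.05, where 3.60% of all genes did.

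**Figure D3:**
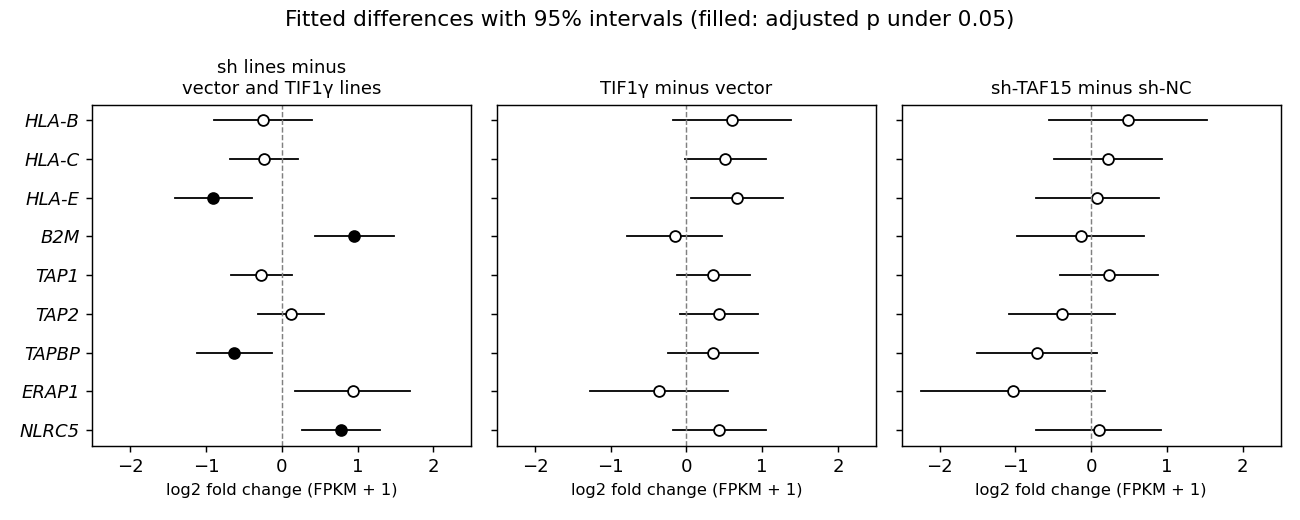
Log2 fold changes of the 9 members on the log2(FPKM + 1) scale in 3 comparisons, with 95% intervals; filled points have a limma adjusted p under 0.05 over all genes tested. Filled points are HLA-E, B2M, TAPBP and NLRC5 in the comparison of the shRNA lines with the other lines, and there are none in the others.

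The comparison with the most calls over all genes set the shRNA lines against the vector and TIF1γ lines, where construct, line and handling cannot be told apart. In the shRNA lines B2M and NLRC5 were higher and HLA-E and TAPBP were lower, by the mean of both shRNA groups minus the mean of the other groups. B2M averaged 1714 ± 227 FPKM in the shRNA lines (SD, n = 3) and 805 ± 155 FPKM in the vector and TIF1γ lines (SD, n = 5), a log2 fold change of 0.96 (SE 0.24, limma adjusted p = 0.00748). HLA-E averaged 41.2 ± 3.34 FPKM in the shRNA lines (SD, n = 3) and 68.3 ± 23.4 FPKM in the others (SD, n = 5), a log2 fold change of −0.91 (SE 0.24, limma adjusted p = 0.00840). For HLA-E the shRNA values of 38.3 to 44.9 FPKM overlapped the vector range of 40.3 to 74.7 FPKM, and the TIF1γ libraries were highest. The light chain and this heavy chain thus went in opposite directions in this fit. Neither call held with the trend on GC and length removed.

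NLRC5 averaged 3.81 ± 0.882 FPKM in the shRNA lines (SD, n = 3) and 1.5 ± 0.649 FPKM in the others (SD, n = 5), a log2 fold change of 0.78 (SE 0.24, limma adjusted p = 0.0191). TAPBP averaged 31.1 ± 9.23 FPKM in the shRNA lines (SD, n = 3) and 45.5 ± 12.0 FPKM in the others (SD, n = 5), a log2 fold change of −0.63 (SE 0.23, limma adjusted p = 0.0424). The low TAPBP values were those of sh-TAF15 (28.9 and 23.1 FPKM). In sh-NC, TAPBP stood at 41.2 FPKM, inside the vector range of 31.4 to 55.0 FPKM. ERAP1 missed the threshold at 0.93 (SE 0.35, limma adjusted p = 0.0513). HLA-B, HLA-C, TAP1 and TAP2 gave log2 fold changes of −0.25 (SE 0.30), −0.24 (SE 0.21), −0.27 (SE 0.19) and 0.12 (SE 0.20), and none of these 4 was called.

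By limma 4 of 9 members were called, where 41.6% of all 13907 genes tested were (20.4% higher and 21.1% lower), so the count of calls among the members is near that of all genes and is no result about the members as a set. Groups did not overlap for B2M and NLRC5, which is 2 of 9, where 36.8% of all genes did not overlap (24.4% above and 12.4% below). The median log2 fold change was −0.24 over the members and 0.02 over all genes.

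The calls differ in how far they hold. Fold changes in this comparison were smaller at higher transcript GC content (Spearman's rho −0.581 across the same 11720 genes). With the trend on GC and length removed, 1 of 9 was called: NLRC5 at 1.05, while HLA-E stood at −0.59 (limma adjusted p = 0.0744) and B2M at 0.58 (limma adjusted p = 0.0884). The HLA-E call was also lost with TPM scaling (−0.66, limma adjusted p = 0.0520). The TAPBP call was lost without sh-TAF15 replicate 3 (−0.53, limma adjusted p = 0.121), without TIF1γ replicate 2 (−0.63, limma adjusted p = 0.0900) and without TIF1γ replicate 3 (−0.65, limma adjusted p = 0.0678). The NLRC5 call was lost without sh-TAF15 replicate 2 (0.65, limma adjusted p = 0.0821). The NLRC5 and TAPBP calls were also lost when replicate number was added to the fit. ERAP1 was called without sh-TAF15 replicate 3 (1.14, limma adjusted p = 0.0310), TIF1γ replicate 3 (1.13, limma adjusted p = 0.0398), vector replicate 2 (0.78, limma adjusted p = 0.0426) or vector replicate 3 (1.13, limma adjusted p = 0.0170). HLA-E and B2M were called without each of the 7 libraries other than sh-NC, and without sh-NC this comparison has no value.

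**Figure D4:**
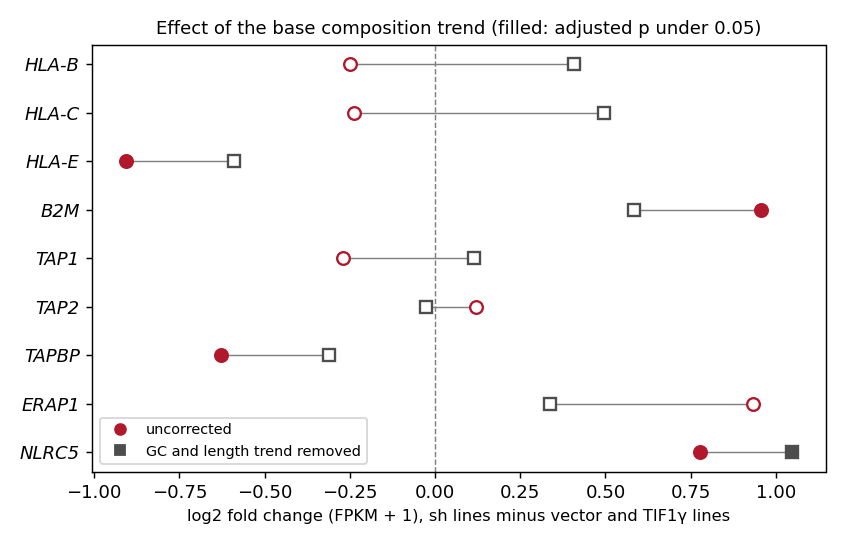
Log2 fold changes of the 9 members, shRNA lines minus vector and TIF1γ lines, on the log2(FPKM + 1) scale; circles are the fit without correction, squares the fit with each library's trend on transcript GC content and length removed, and filled symbols have a limma adjusted p under 0.05. NLRC5 is filled in both fits, HLA-E, B2M and TAPBP only in the first, and HLA-B, HLA-C, TAP1 and TAP2 cross 0.

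The control lines can also be set against each other, with libraries that the comparison above uses as well. In sh-NC minus vector, the log2 fold change was 0.95 (SE 0.37) for B2M, 0.94 (SE 0.36) for NLRC5, 1.27 (SE 0.53) for ERAP1, −0.62 (SE 0.36) for HLA-E and −0.10 (SE 0.35) for TAPBP. By limma 0 of 9 members were called there, where 11.0% of all genes tested were, and 3 of 9 (B2M, ERAP1 and NLRC5) had an unadjusted p under 0.05, where 27.9% of all genes did. Limma adjusted p ran from 0.109 to 0.877.

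Ratios within a library do not depend on its scaling. They were chosen after the values were seen and are given as a description with no test. B2M over the sum of HLA-B, HLA-C and HLA-E was 22.9 and 22.7 in sh-TAF15, 28.6 in sh-NC, 5.22 and 7.30 in TIF1γ and 12.4, 10.0 and 9.74 in vector. The shRNA libraries had the highest ratios and the TIF1γ libraries the lowest, without overlap. The transcripts in this ratio differ in base composition, at 40.6% GC for B2M and 54.8% to 62.7% for the heavy chains, and libraries differ in how their values follow GC content, whose part in the ratios was not tested. HLA-E over HLA-C was 2.37 and 1.85 in sh-TAF15, 2.33 in sh-NC, 3.42 and 4.0 in TIF1γ and 3.04, 3.00 and 4.17 in vector, so the shRNA libraries were below all others. TAP1 over TAP2 was 2.27 and 2.04 in sh-TAF15, 1.37 in sh-NC, 1.86 and 2.61 in TIF1γ and 2.24, 2.46 and 2.39 in vector, and the groups overlapped.

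**Figure D5:**
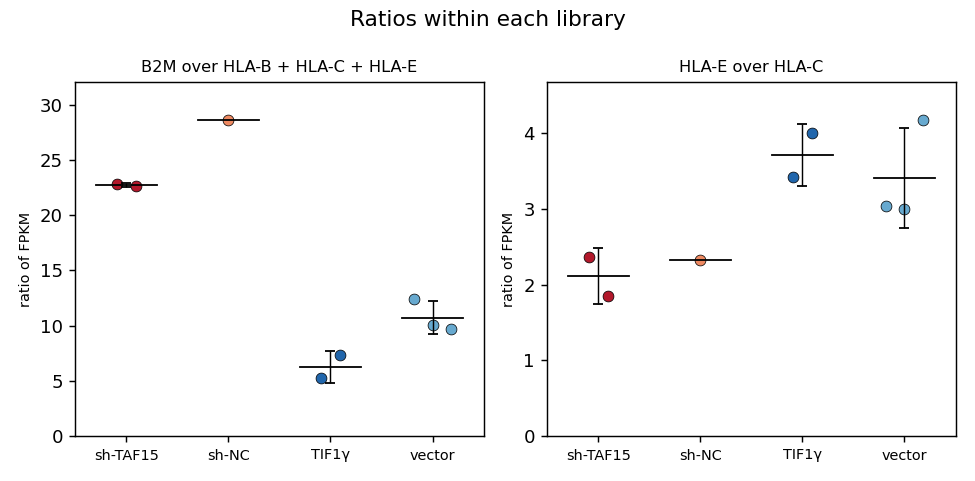
Ratios of FPKM within each library, with 1 point per library, the group mean as a bar and the SD as an error bar for groups with 2 or 3 libraries. B2M over the heavy chains is 22.7 to 28.6 in the shRNA lines and 5.22 to 12.4 in the others, and HLA-E over HLA-C is 1.85 to 2.37 in the shRNA lines and 3.00 to 4.17 in the others.

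The other genes of the pathway were counted in fixed lists, in the same comparison of the shRNA lines with the vector and TIF1γ lines. Of 8 other class I and class I-like chains, 6 were tested, 1 was higher and 2 were lower, with a median of −0.31. Over all genes tested in this comparison 20.4% were higher and 21.1% lower, with a median of 0.02, and the counts of the lists stand beside those shares. MR1, which presents microbial vitamin metabolites, stood at 14.1, 13.5 and 12.0 FPKM in the shRNA lines, against 3.42 to 6.88 FPKM in the others (log2 fold change 1.11, SE 0.25, limma adjusted p = 0.00394). HLA-F, a nonclassical heavy chain, stood at 1.89 to 3.23 FPKM in the shRNA lines, against 2.5 to 11.2 FPKM in the others (−1.19, SE 0.29, limma adjusted p = 0.00591). Once the GC and length trend was taken out, HLA-F had a limma adjusted p of 0.213. MICA, a stress-induced ligand of the receptor NKG2D, stood at 12.2 to 19.3 FPKM in the shRNA lines, against 17.6 to 30.7 FPKM in the others (−0.80, SE 0.22, limma adjusted p = 0.0106), and was not called with that trend removed (limma adjusted p = 0.0988). HLA-G was listed at 0 in all 8 libraries.

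Of 8 listed chaperones and peptide-editing factors, 4 were higher and 0 lower (20.4% and 21.1% of all genes), with a median of 0.59. UGGT1, the glucosyltransferase that senses misfolded glycoproteins, averaged 11.4 ± 3.29 FPKM in the shRNA lines (SD, n = 3) and 5.03 ± 2.04 FPKM in the others (SD, n = 5), a log2 fold change of 1.08. CANX, the lectin chaperone calnexin that first holds new heavy chains, averaged 162 ± 30.9 FPKM in the shRNA lines (SD, n = 3) and 94.3 ± 30.0 FPKM in the others (SD, n = 5), a log2 fold change of 0.78. HSPA5, the chaperone BiP, gave 0.71. Limma adjusted p of these 3 were 0.00844, 0.0231 and 0.0164, and once the GC and length trend was taken out they were 0.0608, 0.30 and 0.0929. The CANX call was also lost without sh-TAF15 replicate 2 (0.65, limma adjusted p = 0.0806) and without TIF1γ replicate 2 (0.53, limma adjusted p = 0.0958).

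Of 5 genes of the immunoproteasome and its activator, 0 were higher and 1 lower (20.4% and 21.1% of all genes), with a median of −0.20. PSMB10, a catalytic subunit, stood at 46.5 to 88.9 FPKM in the shRNA lines and at 57.2 to 158 FPKM in the others (−0.88, SE 0.31, limma adjusted p = 0.0393). That call was lost without sh-TAF15 replicate 2 (−0.66, limma adjusted p = 0.127), without TIF1γ replicate 2 (−0.66, limma adjusted p = 0.130) and with the GC and length trend removed (−0.15, limma adjusted p = 0.661). PSMB9, another catalytic subunit, gave 0.22 (SE 0.20) and PSME1, an activator subunit, −0.27 (SE 0.20).

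Of 23 regulators of class I genes, 22 were tested, 3 were higher and 4 lower (20.4% and 21.1% of all genes), with a median of 0.05. RFXANK, a subunit of the RFX complex with which NLRC5 acts, averaged 45.0 ± 12.6 FPKM in the shRNA lines (SD, n = 3) and 70.1 ± 18.3 FPKM in the others (SD, n = 5), a log2 fold change of −0.95 (SE 0.19, limma adjusted p = 0.00173). ATF1, a factor that binds X2 box sequences, averaged 13.8 ± 1.86 FPKM in the shRNA lines (SD, n = 3) and 6.45 ± 2.07 FPKM in the others (SD, n = 5), a log2 fold change of 0.95 (SE 0.24, limma adjusted p = 0.00652). EZH2, a histone methyltransferase that can repress class I genes, gave 0.69 (SE 0.22, limma adjusted p = 0.0223). After the GC and length trend was taken out, RFXANK and EZH2 were no longer called (limma adjusted p = 0.228 and 0.210), and the EZH2 call was also lost without sh-TAF15 replicate 2 (0.63, limma adjusted p = 0.0842) and without TIF1γ replicate 2 (0.59, limma adjusted p = 0.0576). In TIF1γ minus vector and in sh-TAF15 minus sh-NC, 0 genes of these 4 lists were called by limma. The unadjusted p was under 0.05 for 13 of the 41 tested in TIF1γ minus vector (19.9% of all genes) and for 0 of the 41 in sh-TAF15 minus sh-NC (5.62% of all genes). In the shRNA lines 15 of the 41 were called (8 higher and 7 lower), where 41.6% of all genes were.

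The members did not move as 1 block across the 8 libraries. Of their 36 pairs, 21 had a Pearson correlation of log2(FPKM + 1) above 0 and 15 below 0, with a median of 0.173. The highest were HLA-C with TAP1 (0.930), HLA-E with TAP1 (0.891) and HLA-E with TAPBP (0.804), and the lowest were HLA-B with ERAP1 (−0.606), B2M with TAPBP (−0.531) and HLA-E with B2M (−0.494). These describe 8 libraries of 4 groups that share depth and base-composition differences, so no p is given. A search for genes like the mean profile of the members left out every listed gene, the pathway and marker lists included. Among the 9285 other protein-coding genes at 1 FPKM or more in every library, the most alike were IL17RA (0.970), CHPF (0.956), TBRG1 (0.939), GPR39 (0.938) and GLB1 (0.927). These are Pearson's r over the 8 libraries, picked as the highest of 9285, which raises them. Listed pathway genes were not compared with the profile. HLA-C was the member closest to that mean profile (0.853) and ERAP1 the farthest (0.173). Each member is itself part of the mean profile, which raises its r.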

How the data were processed

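RNA from A549 lines was sequenced on an Illumina HiSeq instrument after poly(A) selection or removal of ribosomal RNA, per the labels' protocols. The submitters' processing notes name GRCh37 as the build, and HTSeq 0.6.1, HISAT2 2.0.1 and cutadapt 1.9.1 as tools. The authors deposited FPKM values per Ensembl gene, with no logarithm, and how FPKM was computed is not given in the sources used here. The 4 samples without values used here are not analysed here.

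Symbols came from GENCODE 29 and matched 52324 of 57879 identifiers. Genes listed at 0 in 1 library beside 100 FPKM or more in another were set aside (19 genes, 0 of them members). A gene was kept if 2 or more libraries had 1 FPKM or more (13907 genes, with all 9 members). Libraries were scaled to a common level with a mean of log2 ratios, trimmed by 30% on the ratios and 5% on the abundances at either end. Log2 values, with a pseudocount of 1, were fitted with limma 3.58.1 in R 4.3.3 (trend and robust variance). All 4 groups entered 1 fit with 4 residual degrees of freedom (prior 9.57). Benjamini-Hochberg adjustment ran over all 13907 genes, and a gene is called at an adjusted p below 0.05. The pseudocount draws fold changes of weak genes toward 0. The script was tested on simulated data.

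The members and lists were chosen with earlier results of these data known. Genes named beside the members are the targeted genes and up to 3 per list. Those of a list have the lowest p in the comparison of the shRNA lines with the other lines. The 5 genes most like the members' mean profile, sought outside all lists, are also named. A gene of these lists is not reported here and is in no list count. Other genes named in the text (markers, HLA-G, CIITA, HLA-DPB1, HLA-DQA1 and HLA-DQB1) lie outside that rule. GC content and length are those of each gene's longest GENCODE 29 transcript. Fragment numbers cover counting error only and assume the longest transcript.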

Additional observations from a re-analysis of the deposited data

How the results depend on the processing

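Alternatives were a pseudocount of 0.1, no filter on low values, no scaling, TPM scaling, removal of each library's trend on GC and length, a replicate block, only the groups of a comparison in the fit, and leaving out each library in turn. In sh-TAF15 minus sh-NC, in TIF1γ minus vector, in their difference and in sh-NC minus vector, 0 members were called under each of those run. Without sh-NC replicate 2 the comparisons with the shRNA control have no value. For the shRNA lines minus the vector and TIF1γ lines, 4 members were called, 3 to 5 with 1 library left out and 1 with the GC and length trend removed. HLA-E was not called under TPM scaling (−0.66, adjusted p = 0.0520). TAPBP was called with a pseudocount of 0.1 but not with no filter, no scaling, TPM scaling or the trend removed (adjusted p from 0.119 to 0.242). ERAP1 was called with no scaling (1.07) and TPM scaling (1.13).

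Signs that reversed belong to values that were not called. With the trend removed, the shRNA lines gave 0.41 for HLA-B, 0.50 for HLA-C, 0.11 for TAP1, −0.0251 for TAP2 and 0.17 for PSME1. TIF1γ minus vector then gave −0.0237 for HLA-C, 0.235 for B2M, −0.0063 for TAP1 and 0.16 for ERAP1. Likewise sh-TAF15 minus sh-NC gave −0.0787 for HLA-C and −0.0512 for HLA-E. TPM scaling gave 0.0066 for HLA-C in the shRNA lines and −0.0157 for HLA-E in sh-TAF15 minus sh-NC. With 1 library left out, HLA-B in the shRNA lines ran from −0.495 to 0.0059, and in TIF1γ minus vector B2M ran from −0.58 to 0.28 and ERAP1 from −0.76 to 0.0415. In sh-TAF15 minus sh-NC the ranges were −0.0113 to 0.99 for HLA-B, −0.30 to 0.0234 for B2M and −0.16 to 0.36 for NLRC5. The cause of these changes was not tested. Of all values refitted under settings other than a left-out library, 255 kept their direction and side of the threshold, 24 kept their direction and lost the call, 4 kept it and gained a call and 14 changed sign; with 1 library left out these numbers were 310, 10, 4 and 7.

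Replicate numbers are shared between groups, and deviations of same-numbered vector and TIF1γ libraries from their group means correlated weakly (r = 0.171 and 0.121). In a group of 2 libraries these deviations mirror each other, so the 2 pairs are not independent. With sh-TAF15, vector and TIF1γ libraries had r from −0.373 to −0.236. The numbers were not taken as pairing. With a replicate block 3 members were called in the shRNA lines (ERAP1, B2M and HLA-E), NLRC5 (0.64, adjusted p = 0.116) and TAPBP (−0.64, adjusted p = 0.0861) were not, and HLA-E in sh-TAF15 minus sh-NC was −0.12.

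Over all genes, the shRNA lines had 2841 higher and 2941 lower calls, against 3841 and 2305 with no scaling, which moves the median of all genes to 0.15, and 3690 and 2043 with TPM scaling, which moves it to 0.22. Counts of calls over all genes differed by more than 1.5 times in TIF1γ minus vector (3, from 0 with the trend removed to 296 without vector replicate 3), in sh-TAF15 minus sh-NC (8, from 0 without either sh-TAF15 library to 229 with only its groups) and in their difference (6, from 1 without either sh-TAF15 library to 103 with no filter). In sh-NC minus vector there were 1529, and 1000 with the replicate block. The number of libraries, and a lone sh-NC library above all, limits what these data can show.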

Other observations

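Class II antigen presentation genes, which share the peptide-display function but normally mark professional antigen-presenting cells, were near or at 0 apart from 3 of the 10 listed. HLA-DMB, a subunit of the class II peptide editor, stood at 0.157, 0.205 and 0.159 FPKM in the shRNA lines, against 18.8 and 26.7 in TIF1γ libraries and 8.97, 10.9 and 20.1 in vector libraries. HLA-DMA, its partner subunit, stood at 1.89 to 4.72 FPKM in the shRNA lines and at 9.22 to 18.2 FPKM in the others. Both were lower in the shRNA lines, with log2 fold changes of −4.0 (SE 0.29, limma adjusted p = 4.60e-07) and −2.15 (SE 0.24, limma adjusted p = 2.31e-05). CD74, the invariant chain that chaperones class II molecules, stood at 1.97, 2.09 and 4.02 FPKM in the shRNA lines, against 0.0421 to 0.332 FPKM in the others, with a log2 fold change of 1.62 (SE 0.22, limma adjusted p = 1.28e-04). The editor subunits and the invariant chain thus moved in opposite directions between the same libraries.

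HLA-DPB1, HLA-DQA1 and HLA-DQB1 were at 0 in all 8 libraries. CIITA, the class II transactivator related to NLRC5, stood at 0.500, 0.365 and 0.373 FPKM in the shRNA lines, against 0.0202 and 0.0121 in TIF1γ libraries and 0.0277, 0.526 and 0.0213 in vector libraries. It did not reach the level needed for a test, and vector replicate 2 was above all the others. In TIF1γ minus vector 0 of the 3 tested class II genes were called by limma, where 0.0216% of all genes were, and 0 had an unadjusted p under 0.05, where 19.9% did. In sh-TAF15 minus sh-NC 0 of the 3 were called by limma, where 0.0575% of all genes were, and 0 had an unadjusted p under 0.05, where 5.62% did.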
